A study of Bos taurus with 16 samples.

Results

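FOS, JUN, ATF3 and BTG2 are immediate early genes, and the 4 of them are described here among the 27607 gene IDs counted in the liver and skeletal muscle of young bull calves. Their rows were found by Ensembl ID: ENSBTAG00000004322 for FOS, ENSBTAG00000004037 for JUN, ENSBTAG00000008545 for ATF3 and ENSBTAG00000015711 for BTG2. The supplementary tables pair the first 2 IDs with a symbol among genes selected in liver, and the last 2 among genes selected in muscle. The members were thus selected on the measured difference between the groups, that in liver for FOS and JUN and that in muscle for ATF3 and BTG2. In those organs, and for the difference between the organs, their values are given as a description with no test. FOS and JUN in muscle, ATF3 and BTG2 in liver, and the level in muscle against liver for each of the 4 were not what gave the genes their names, and only these were tested. The level in muscle against liver is averaged over both groups, so it is not free of the values on which the genes were selected. Since the 4 genes were chosen with earlier results of both organs known, these tests are not independent evidence of a direction.

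Immediate early genes are transcribed within minutes of a stimulus such as a growth factor, a hormone, contraction, injury or handling, from promoters already bound by the factors that switch them on, and their mRNAs are short-lived. The FOS and JUN proteins pair through leucine zippers to form AP-1, a transcription factor that binds DNA only as a dimer. ATF3 is a stress-induced member of the ATF/CREB family that can pair with JUN proteins and often acts as a repressor, while BTG2 is a p53-inducible antiproliferative protein that recruits the CCR4-NOT deadenylase to mRNA. In liver these genes are known for their induction during regeneration and acute stress, and in muscle for their induction by exercise and damage.

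The calves were 8 Holstein males, 4 born from embryos produced in vitro (IVP) and 4 born from embryos produced in vivo by superovulation and artificial insemination and collected for transfer (MOET), all carried by synchronized recipients. The comparison addresses whether the way the embryo was produced is accompanied by differences in the organs of the calf after birth. Liver and semitendinosus muscle were taken from the same calves shortly after euthanasia and snap-frozen, giving 16 libraries of polyadenylated RNA, 1 per calf and organ. The IVP calves (3208, 3209, 5833 and 5841) were between 98 and 103 days old, MOET calves 3217, 3218 and 5932 were between 102 and 104 days old, and MOET calf 3213 was 144 days old. IVP calves 3208 and 3209 and MOET calves 3217 and 3218 were full siblings by the sire Builder P, IVP calves 5833 and 5841 had the same dam and the sire My Dream P RC, and MOET calves 5932 and 3213 had another dam and 2 other sires. The order of sampling and the interval from euthanasia to freezing for each calf are not given in the sources used here, so the part of handling in the values below was not tested.

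The deposited counts, which the authors had adjusted for age, summed to between 22758137 and 24667728 per liver library and between 23677247 and 25626474 per muscle library. Calf 3213 lay at the mean of the other MOET calves: over 8396 genes in liver and 6284 in muscle with a mean above 200 counts, its median deviation from them was 0.0219 and 0.0137 on the log2 scale, where the noise of counting would by itself give 0.0383 and 0.0413. The other 7 calves deviated from their group by 0.0993 to 0.372 (liver) and 0.108 to 0.187 (muscle). Means and SDs were therefore taken over the 4 IVP calves and MOET calves 3217, 3218 and 5932, and the value of calf 3213 is given beside them. Levels are in CPM, the count set to a common library size, after TMM scaling within the organ, where no gene's length enters, so levels are compared between calves and not between genes. The labels do not say that more than 1 piece of tissue was taken per calf and organ, so p-values measure the spread between calves with 1 library each.

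All 4 genes were counted well above the filter on low counts in both organs. The lowest count was 84, for BTG2 in the muscle of MOET calf 3218, where counting error alone gives a CV of 10.9%, and the highest was 10512, for JUN in the muscle of IVP calf 5841, where it gives 0.975%. These figures cover counting error only. In bulk tissue, fewer cells of a type and less RNA per cell cannot be told apart. The libraries were not stranded, so that reads of a gene on the opposite strand that overlaps one of the 4 genes would have been counted with it or lost.

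**Figure D1:**
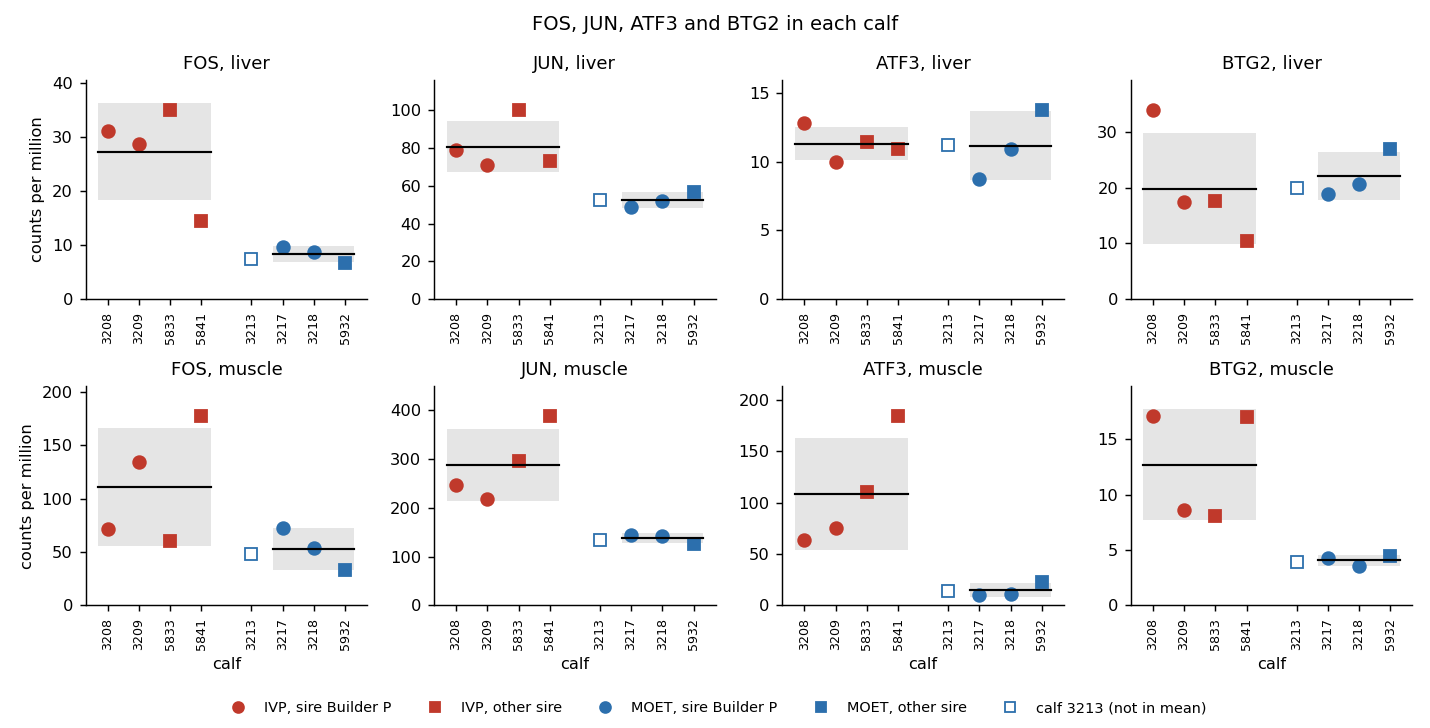
Level of each gene in CPM (vertical axes, from 0) for each calf (horizontal axes), with liver in the upper and muscle in the lower row. Red stands for IVP and blue for MOET calves, circles for the sire Builder P and squares for other sires, the line and grey band for the mean ± SD of 4 IVP and 3 MOET calves, and the open square for calf 3213; FOS and JUN in liver and JUN, ATF3 and BTG2 in muscle have no IVP calf at or below a MOET calf.

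FOS encodes the inducible partner of JUN in AP-1. In liver, its level was 31.2, 28.7, 35.0 and 14.4 CPM in IVP calves 3208, 3209, 5833 and 5841, and 9.56, 8.69 and 6.60 CPM in MOET calves 3217, 3218 and 5932, with 7.42 CPM in calf 3213. Every IVP calf was above every MOET calf, and calf 5841 was the lowest of the IVP calves, at 1.51 times the highest MOET calf. Across the 14290 genes tested in liver, 16.3% had all IVP calves above all MOET calves. The IVP mean was 27.3 ± 8.99 CPM (SD, n = 4) and the MOET mean 8.28 ± 1.52 CPM (SD, n = 3), and the log2 fold change fitted by edgeR was 1.75 (standard error 0.296), which placed FOS 29th from the highest of all genes tested in liver. Among the full siblings by Builder P, the mean of the IVP calves was 3.28 times that of the MOET calves.

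In muscle, its level was 71.8, 134.6, 60.1 and 176.9 CPM in the IVP calves in the same order, and 72.2, 53.3 and 33.2 CPM in the MOET calves, with 48.4 CPM in calf 3213. The groups overlapped: only 2 of 4 IVP calves, 3209 and 5841, were above every MOET calf, while calf 5833, which had the highest FOS level in liver, had the lowest of the IVP calves in muscle. IVP calves averaged 110.9 ± 54.9 CPM (SD, n = 4) and MOET calves 52.9 ± 19.5 CPM (SD, n = 3). The log2 fold change was 1.01 (standard error 0.372), and the difference did not pass the threshold (FDR 0.173, edgeR). DESeq2 gave an FDR of 0.260. FOS varied between calves of a group more than most genes did: its biological coefficient of variation in muscle, 0.322, was at the 97.2nd percentile of all genes tested, whose median was 0.146, and in liver, at 0.265, it was at the 82.4th percentile.

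JUN encodes the subunit of AP-1 that can also pair with itself. Its level in liver was 78.8, 71.0, 100.2 and 73.0 CPM in the IVP calves and 48.5, 51.9 and 56.6 CPM in the MOET calves, with 52.7 CPM in calf 3213. The groups did not overlap, and the lowest IVP calf, 3209, was at 1.25 times the highest MOET calf. The means were 80.7 ± 13.4 CPM (SD, n = 4) and 52.4 ± 4.09 CPM (SD, n = 3), and the log2 fold change was 0.63 (standard error 0.149), 1310th from the highest in liver, a smaller difference than that of FOS, with the groups apart in both genes.

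In muscle, JUN was higher in the IVP calves, with an FDR just under the threshold. Its level was 247.6, 218.0, 296.7 and 387.4 CPM in IVP calves and 145.0, 142.2 and 126.9 CPM in MOET calves, with 135.1 CPM in calf 3213. No MOET calf reached the lowest IVP calf, 3209, which was at 1.503 times the highest MOET calf; the share of all 12854 genes tested in muscle with every IVP above every MOET calf was 10.4%. The average was 287.4 ± 74.1 CPM (SD, n = 4) for IVP and 138.0 ± 9.73 CPM (SD, n = 3) for MOET calves. On the log2 scale the fitted difference was 1.03 (standard error 0.187, FDR 0.0439, edgeR), where 0.467% of all genes tested in muscle passed that threshold in either direction and 0.280% as higher in IVP calves. DESeq2 gave an FDR of 1.19e-05.

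The call for JUN in muscle was near its threshold. It was lost when calf 3208, 3217, 3218, 5833 or 5932 was left out, with FDR values between 0.0602 and 0.222 while the log2 fold change stayed between 0.97 and 1.10, and among the full siblings by Builder P it was 0.70 (FDR 0.106, edgeR). The IVP calves of the sire My Dream P RC had 1.47 times the JUN level of the IVP calves of Builder P in muscle.

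ATF3 had the largest difference of the 4 genes, and it lay in muscle. There its level was 63.3, 75.2, 110.1 and 183.7 CPM in IVP calves 3208, 3209, 5833 and 5841, and 10.1, 11.5 and 22.4 CPM in MOET calves 3217, 3218 and 5932, with 13.6 CPM in calf 3213. The lowest IVP calf was at 2.83 times the highest MOET calf, and set against the MOET mean the IVP calves ran from 4.32-fold in calf 3208 to 12.5-fold in calf 5841. The fitted log2 fold change was 2.83 (standard error 0.408), 8th from the highest of all genes tested in muscle. Among the full siblings by Builder P the IVP mean was 6.41 times the MOET mean, and the IVP calves of My Dream P RC had 2.12 times the level of the IVP calves of Builder P.

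In liver, where ATF3 was tested, its level was 12.9, 10.02, 11.4 and 10.96 CPM in IVP calves and 8.77, 10.9 and 13.8 CPM in MOET calves, with 11.3 CPM in calf 3213. The IVP values lay wholly within the range of the MOET values. The group means were 11.3 ± 1.18 CPM (SD, n = 4) and 11.2 ± 2.51 CPM (SD, n = 3). The log2 fold change was 0.03 (standard error 0.178, FDR 0.925, edgeR), where 0.0350% of all genes tested in liver passed the threshold, and its sign was not the same under every alternative, from -0.13 to 0.22.

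BTG2 was separated in muscle as well. Its level there was 17.0, 8.65, 8.08 and 17.0 CPM in the IVP calves and 4.25, 3.52 and 4.45 CPM in the MOET calves, with 3.88 CPM in calf 3213. The IVP calves fell into a higher and a lower pair, 3208 with 5841 and 3209 with 5833, each pair made of 1 calf per sire, and the lowest of them was at 1.81 times the highest MOET calf. The means were 12.7 ± 5.01 CPM (SD, n = 4) and 4.07 ± 0.488 CPM (SD, n = 3), with a log2 fold change of 1.61 (standard error 0.290), 40th from the highest in muscle. The IVP mean was 3.31 times the MOET mean among the full siblings by Builder P.

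In liver, BTG2 was 34.0, 17.4, 17.7 and 10.4 CPM in IVP calves and 18.9, 20.6 and 27.0 CPM in MOET calves, with 20.1 CPM in calf 3213. Calf 3208 was above every MOET calf and the other 3 IVP calves were below every MOET calf. The share of all genes split in this way was not computed. A different pattern, all IVP below all MOET calves, held for 16.5% of the genes tested in liver. The means were 19.9 ± 10.03 CPM (SD, n = 4) and 22.2 ± 4.29 CPM (SD, n = 3), and the log2 fold change of -0.12 (standard error 0.343) did not pass the test (FDR 0.822, edgeR). It was -0.52 without calf 3208 and 0.38 among the full siblings by Builder P, so its direction rested on which calves were used. The IVP calves of My Dream P RC had 0.544 times the BTG2 level of those of Builder P in liver. The biological coefficient of variation of BTG2 was at the 92.2nd percentile of all genes in liver and at the 91.9th in muscle, and that of ATF3 at the 41.1st and 97.3rd.

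**Figure D2:**
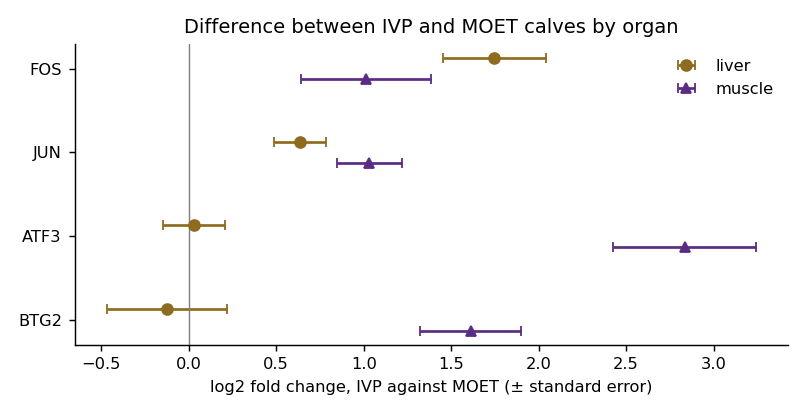
Fitted log2 fold change of IVP against MOET calves (horizontal axis, 0 for no difference) for each gene, with circles for liver, triangles for muscle and bars for ± 1 standard error. ATF3 and BTG2 lie beside 0 in liver, at 0.03 and -0.12, and at 2.83 and 1.61 in muscle, while FOS and JUN lie above 0 in both organs.

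The 4 genes therefore did not share 1 order of calves. In liver the highest IVP calf was 5833 for FOS and JUN and 3208 for ATF3 and BTG2, whereas in muscle calf 5841 was highest for FOS, JUN and ATF3 and level with calf 3208 for BTG2. Calf 5841 was the lowest IVP calf in liver for FOS and BTG2. In 1 fit over the 16 libraries, the difference between IVP and MOET calves in muscle minus that in liver was -0.71 for FOS (standard error 0.471), 0.40 for JUN (0.220), 2.85 for ATF3 (0.417) and 1.74 for BTG2 (0.441) on the log2 scale. It includes the contrasts on which the genes were selected and is a description. In that fit, 23.1% of 15237 genes had an FDR under 0.05 for this quantity, a share that depended on how age was modelled.

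Muscle and liver differed for each of the 4 genes. On 1 scaling over the 16 libraries, FOS was at 15.2 ± 9.56 CPM in liver and 108.5 ± 63.6 CPM in muscle (SD, n = 7 calves other than 3213 in each organ), a log2 difference of 3.03 (standard error 0.251, FDR 5.49e-09, edgeR), and it was higher in muscle in 8 of 8 calves. JUN was at 54.3 ± 14.4 and 281.2 ± 117.3 CPM, a log2 difference of 2.29 (standard error 0.115, FDR 6.34e-12, edgeR), again in 8 of 8 calves. With most genes unlike between such organs, 84.5% of the 15237 genes tested passed this threshold, 39.9% as higher in muscle and 44.7% as higher in liver.

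ATF3 was at 8.90 ± 1.31 CPM in liver and 85.3 ± 78.3 CPM in muscle on the same scaling, with a log2 difference of 2.49 averaged over the groups (standard error 0.214, FDR 9.37e-09, edgeR), and was higher in muscle in 8 of 8 calves. That average includes the IVP muscle values on which ATF3 was selected. Muscle was 1.73 to 2.61 times liver in MOET calves and 7.87 to 26.3 times in IVP calves. BTG2 was the exception, at 16.5 ± 6.01 CPM in liver and 11.3 ± 7.29 CPM in muscle, with a log2 difference of -0.86 (standard error 0.220, FDR 0.00179, edgeR), and only calf 5841 of the 8 had more in muscle. The values rest on 1 scaling of unlike tissues: with library totals in place of TMM, the median of all genes moved from -0.09 to -0.77, and the differences were 2.34, 1.62, 1.83 and -1.55 for FOS, JUN, ATF3 and BTG2.

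Within a calf, the ratio of muscle to liver separated the groups for ATF3 and BTG2. It includes the muscle values on which both genes were selected, so it is a description with no test. The share of all genes with such a ratio was not computed. For ATF3 it was 7.87, 12.1, 14.998 and 26.3 in IVP calves 3208, 3209, 5833 and 5841 against 1.86, 1.73 and 2.61 in MOET calves 3217, 3218 and 5932, with 1.99 in calf 3213. For BTG2 it was 0.800, 0.796, 0.712 and 2.58 in the IVP calves against 0.364, 0.279 and 0.264 in the MOET calves, with 0.318 in calf 3213. In the MOET calves BTG2 was thus always lower in muscle than in liver, and among the IVP calves it was so in 3 of 4. For FOS the IVP calves ran from 2.67 to 19.3, on both sides of the MOET range of 8.06 to 12.2, and for JUN from 4.61 to 8.32, overlapping 3.59 to 4.84.

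**Figure D3:**
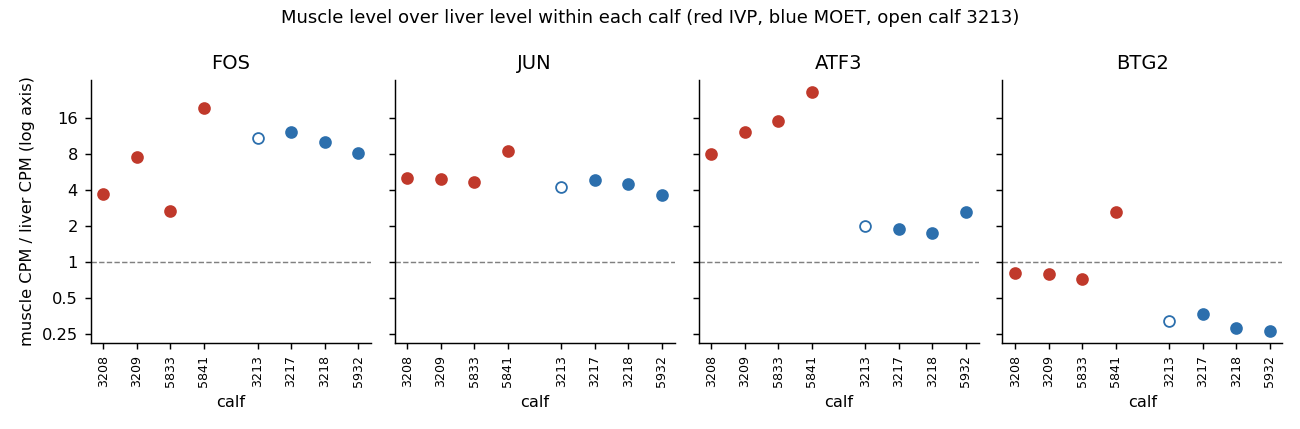
Level in muscle divided by that in liver within each calf (vertical axis, log scale, CPM on 1 scaling over the 16 libraries; the dashed line marks equal levels) for the 4 genes, with IVP calves in red, MOET calves in blue and calf 3213 open. The ratio of ATF3 is at least 7.87 in IVP and at most 2.61 in MOET calves, and that of BTG2 passes 1 only in IVP calf 5841. Both ratios include the muscle values on which ATF3 and BTG2 were selected.

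The other AP-1 subunits that could be named are partners and rivals of FOS and JUN. The list held 14 genes and 4 of them, FOSB, FOSL2, JUNB and JUND, are paired with an ID, each from the tables of genes selected in liver, so that their liver values are not independent evidence of a direction. In liver none of the 4 passed an FDR of 0.05 with edgeR and each of the 4 did with DESeq2, while at an unadjusted p under 0.05 there were 3 higher and 1 lower. Across all genes tested in liver, 14.8% were higher at that p and 2137 of 14290 lower, and DESeq2 called 5.20% as higher and 5.77% as lower. FOSB, which like FOS is induced within minutes, averaged 2.24 ± 1.15 CPM (SD, n = 4) in the IVP livers and 0.774 ± 0.139 CPM (SD, n = 3) in the MOET livers, with a log2 fold change of 1.56. JUNB and JUND, which share the leucine zipper and the DNA-binding region of JUN, had log2 fold changes of 0.94 and 0.71. FOSL2, a FOS relative that lacks the C-terminal activation domain, lay the other way, at 3.57 ± 0.903 CPM for IVP livers and 9.78 ± 3.46 CPM for MOET livers (log2 fold change -1.43).

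In muscle, the same 4 subunits had log2 fold changes above 0, with a median of 0.24 beside 0.02 for all genes tested. That median was -0.29 among the full siblings by Builder P, and between 0.006 and 0.38 with a calf left out. None of the 4 passed with edgeR (1 at an unadjusted p under 0.05, and 1 with DESeq2). As higher, 11.4% of all genes tested there had such a p, and DESeq2 called 2.19%. JUND was at 166.7 ± 25.2 CPM (SD, n = 4) for IVP and 119.8 ± 2.92 CPM (SD, n = 3) for MOET calves with no overlap, as higher in IVP calves for 10.4% of all genes (log2 fold change 0.48), and the log2 fold changes of FOSB, FOSL2 and JUNB were 0.36, 0.11 and 0.02 with overlapping groups. The separation of JUN in muscle was thus accompanied by that of JUND and not of JUNB or FOSB.

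Of 13 other ATF and CREB factors, the family of ATF3, 7 could be named. All but 1 of them, ATF5, are named from the tables of genes selected in liver, and ATF5 and ATF7 from those of muscle. Their values in those organs are therefore not independent evidence of a direction, and their counts are partly set by the selection. In liver, ATF2 (-0.88), ATF6 (-1.12) and CREB3L2 (-1.27) were lower in IVP calves with no overlap, and CREB3L3 (0.37), a hepatocyte factor, was higher with no overlap. ATF5 averaged 732.8 ± 256.8 CPM (SD, n = 4) in the IVP livers and 417.6 ± 145.3 CPM (SD, n = 3) in the MOET livers with overlapping groups (log2 fold change 0.78). None passed with edgeR, 2 higher and 3 lower had an unadjusted p under 0.05, and DESeq2 called 1 higher and 3 lower. The shares of all genes in liver were 14.8% higher and 2137 of 14290 lower at that p, and 16.3% and 16.5% with no overlap. In muscle, where 6 were tested, none passed with edgeR. At an unadjusted p under 0.05, 2 were higher and 1 lower, beside 11.4% and 8.43% of all genes. DESeq2 called 1 lower, as it did 1.42% of all genes. There ATF6 (0.69) and ATF7 (0.63) were higher and ATF5 (-1.20) lower with no overlap, where 8.64% of all genes were lower in that way, against 2.83 for ATF3, and CREB3L3 was listed at 0 in every muscle library. Beside ATF3, ATF4 and DDIT3, its usual inducer and partner in the integrated stress response, were not analysed here.

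The relatives of BTG2 that could be named, 2 of 5, are BTG1 and BTG3. BTG1, an antiproliferative protein of the same family, was at 124.4 ± 6.58 CPM (SD, n = 4) in the IVP livers and 80.4 ± 5.47 CPM (SD, n = 3) in the MOET livers (log2 fold change 0.63, no overlap, as higher in 16.3% of all genes) and at 49.0 and 48.9 CPM in muscle (0.00). Its difference thus lay in the other organ than that of BTG2. BTG1 is named from the tables of genes selected in liver and BTG2 from those of muscle, so that contrast is at least partly set by the selection. BTG3 had log2 fold changes of -0.22 in liver and 0.15 in muscle. None passed with edgeR in either organ, with 1 at an unadjusted p under 0.05, BTG1 in liver, and DESeq2 called that gene alone. Of all genes tested in liver, 14.8% were higher at that p, and DESeq2 called 5.20% as higher.

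**Figure D4:**
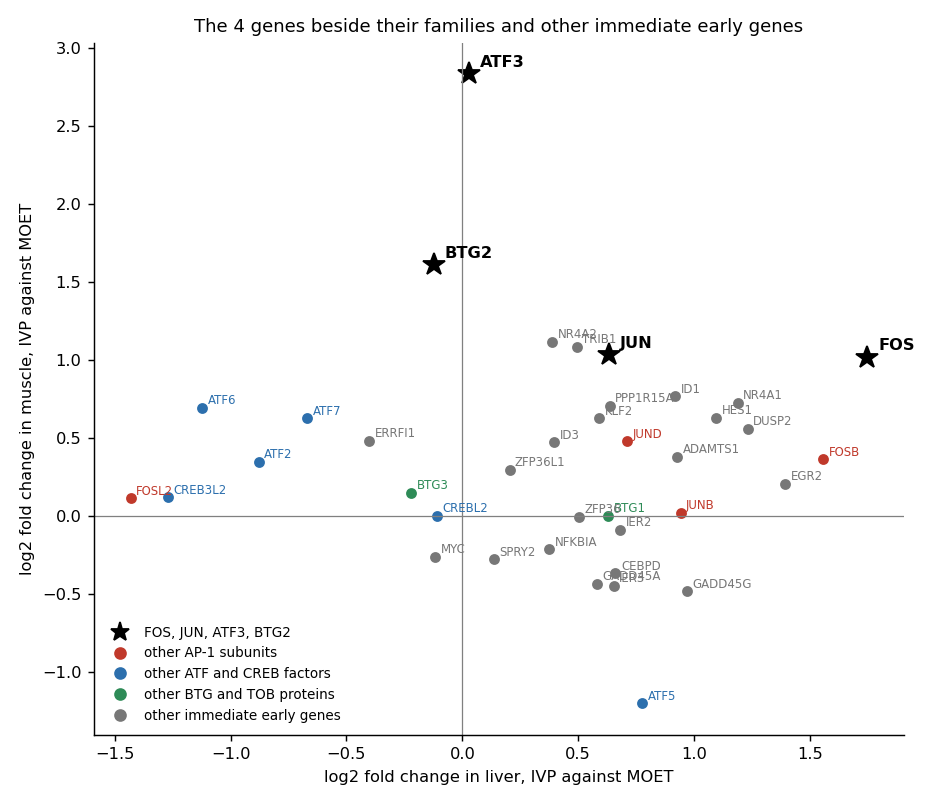
Log2 fold change of IVP against MOET calves in liver (horizontal axis) and in muscle (vertical axis) for the 4 genes (stars) and the named members of their families and of the list of other immediate early genes (points, 1 per gene tested in both organs). Most grey points lie to the right of 0 while ATF3 and BTG2 lie above the others near 0 in liver, and FOSL2, ATF2, ATF6, ATF7 and CREB3L2 lie to the left.

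The list of other immediate early genes held 49 symbols, of which 22 could be named. In liver, 20 of the 22 had a log2 fold change above 0 and 2 below, against 49.7% above 0 among all genes tested, with a median of 0.61 beside 0.00 for all genes. Of these, 16 had every IVP above every MOET calf, as did 16.3% of all genes tested, and 17 had an unadjusted p under 0.05 as higher, which 14.8% of all genes tested had. None passed the FDR threshold with edgeR and 12 did as higher with DESeq2, which called 5.20% of all genes in that direction. Since 15 of the 22 names come from the tables of genes selected in liver, this direction is partly set by the selection; of the 7 that do not, 5 were above 0 and 2 below. The largest log2 fold changes were those of EGR2 (1.39), a zinc finger factor; DUSP2 (1.23), a phosphatase that switches off MAP kinases; NR4A1 (1.19), an orphan nuclear receptor; and HES1 (1.10), a target of Notch. EGR2 was at a low level, 1.18 CPM in IVP and 0.465 CPM in MOET livers, and its groups overlapped. MYC (-0.12) and ERRFI1 (-0.40), an inhibitor of the EGF receptor, lay below 0 with overlapping groups.

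In muscle, 13 of the 22 were above 0 and 9 below, against 52.3% above 0 among all genes tested, with a median of 0.34 beside 0.02. Among the full siblings by Builder P the median of the list was -0.23, and with a calf left out it lay between 0.056 and 0.47. At an unadjusted p under 0.05 there were 8 higher and 4 lower, where 11.4% and 8.43% of all genes tested had that. With edgeR, 1 of them passed: TRIB1, a pseudokinase that directs C/EBP proteins to degradation, rose from 34.4 ± 6.54 CPM (SD, n = 3) to 73.1 ± 13.7 CPM (SD, n = 4), by 1.09 on the log2 scale (standard error 0.174, FDR 0.0286). That call was lost without calf 3208, 3213, 3217, 3218 or 5841, with FDR values between 0.0505 and 0.189 (edgeR), and among the full siblings by Builder P (1.05, FDR 0.0537, edgeR). DESeq2 called 3 as higher, as it did 2.19% of all genes tested. NR4A1, an exercise-induced gene in muscle, averaged 367.4 ± 104.7 CPM (SD, n = 4) for IVP and 219.8 ± 40.1 CPM (SD, n = 3) for MOET calves (log2 fold change 0.72) and PPP1R15A, which dephosphorylates eIF2α after stress, at 26.6 and 16.2 CPM (0.70), the latter with no overlap. IER3 (-0.45), a survival factor, was lower in IVP calves with no overlap. Of the 22, 18 are not named from muscle tables, and 10 of these were above 0 and 8 below. None of these genes reached the log2 fold changes of ATF3 and BTG2 in muscle, where the highest was that of NR4A2 (1.12). ATF3 and BTG2 were selected on that difference and most of the 22 were not, so this order is partly set by the selection. The groups overlapped for NR4A2, with 35.8 CPM in IVP calf 5841 and 10.4 to 11.3 CPM in the other IVP calves.

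Of 27 kinases and factors that act upstream of immediate early genes, 9 could be named. In liver, 3 were above 0 and 6 below, with 2 higher, MAP2K2 and MAP2K3 (each 0.64), kinases that activate MAP kinases, and 3 lower at an unadjusted p under 0.05, beside 14.8% and 2137 of 14290 among all genes. Among the lower ones were EGFR (-1.18), the EGF receptor, and RPS6KA3 (-0.92), a kinase that acts on FOS and its regulators. In muscle, 6 were above 0 and 3 below, with 3 higher at an unadjusted p under 0.05, beside 11.4% of all genes. Among them was ELK3 (0.77), a partner of serum response factor at the FOS promoter. None passed with edgeR in either organ, and DESeq2 called 4 in liver, 1 higher and 3 lower, and 2 in muscle, both higher, where it called 2.19% of all genes as higher. In liver it called 5.20% of all genes as higher and 5.77% as lower.

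The other lists could be named in small part only, and none of their genes passed with edgeR in either organ. Among all genes tested in liver, 14.8% were higher and 2137 of 14290 lower at an unadjusted p under 0.05, and in muscle 11.4% and 8.43%. DESeq2 called 5.20% of all genes as higher and 5.77% as lower in liver, and 2.19% and 1.42% in muscle. With so few genes named, the counts of these lists are a description and not a result about the lists. Of 13 components and partners of the CCR4-NOT deadenylase, to which BTG2 binds, 6 were named, with 1 above and 5 below 0 in liver (3 lower at an unadjusted p under 0.05, 1 with DESeq2) and 3 above and 3 below 0 in muscle (1 lower at an unadjusted p under 0.05, 0 with DESeq2). CNOT1, the scaffold of the complex, was at -0.59 in liver and 0.12 in muscle. Of 17 integrated stress response genes 3 were named, 2 above and 1 below 0 in liver and 1 above and 2 below in muscle. The stress kinase EIF2AK3 was at -0.55 in liver and 0.13 in muscle, and PHGDH, an enzyme of serine synthesis, at 0.60 and -3.16, with 2.06 CPM in IVP and 18.9 ± 24.3 CPM in MOET muscle (SD, n = 3). Unadjusted p-values under 0.05 were found for 1 higher and 1 lower in liver and 1 lower in muscle, and DESeq2 called 1 higher in liver and 1 lower in muscle.

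Of 16 heat shock genes 3 were named, 2 above and 1 below 0 in liver and 1 above and 2 below in muscle, with 1 higher in each organ at an unadjusted p under 0.05 and 0 with DESeq2. HSPB1 was at 0.97 in liver and -0.26 in muscle. Of 15 glucocorticoid-induced genes 4 were named, 2 above and 2 below 0 in each organ, with 1 higher and 1 lower in each at an unadjusted p under 0.05, and 1 higher in liver with DESeq2. KLF9 was at -0.81 in liver and 0.29 in muscle. Of 15 hypoxia genes 3 were named, 2 above and 1 below 0 in liver, with 0 at an unadjusted p under 0.05 and 0 with DESeq2, and 3 below 0 in muscle, with 1 at an unadjusted p under 0.05 and 1 with DESeq2, ENO1 (-0.50). Of 17 p53 target genes, a group BTG2 belongs to, only GADD45A was named, at 0.58 in liver and -0.44 in muscle, with an unadjusted p under 0.05 in both and a DESeq2 call in liver. Of 17 AP-1 target genes only SPP1 was named, at 0.20 in liver, with no overlap between the groups, as higher in 16.3% of all genes there. It had an unadjusted p above 0.05 and no call by either tool, and it was not tested in muscle.

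The pattern of each gene over the 7 calves other than 3213 was compared with that of every other gene in the organ, as the root mean square difference of their centred log2 CPM (prior count 2). Values were centred over the 7 calves and not within the groups, so likeness includes the difference between IVP and MOET calves. Only 3663 of 14289 genes in liver and 3371 of 12853 in muscle had a name. These are mostly genes selected on the same libraries, so the nearest named genes are partly set by the selection. The most similar genes with a name were LRRC4B, FOSB and EGR2 for FOS in liver (differences of 0.39, 0.41 and 0.43, where the median over 14289 genes was 0.94). NDRG2 was among those nearest to JUN in liver (0.11, median 0.43). For ATF3 in liver they were SORBS3, ITPKC and RALGDS (each 0.13, median 0.36) and for BTG2 PDE4D, SEMA7A and TEF (0.15, 0.18 and 0.19, median 0.55). In muscle they were MITF, STXBP4 and IRS1 for FOS (0.40, 0.41 and 0.45, median 0.78), GOT1, ALAS1 and ETS2 for JUN (0.13, 0.15 and 0.15, median 0.59), BRI3BP, DSP and ZBTB21 for ATF3 (0.72, 0.76 and 0.78, median 1.52) and TFRC, ZBTB3 and MPPED2 for BTG2 (0.20, 0.34 and 0.35, median 0.88).

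The 4 genes were also placed by their likeness to each other. In liver JUN was 95th of 14289 genes in likeness to FOS, and FOS 11421st in likeness to JUN. In muscle JUN was 97th of 12853 genes in likeness to FOS, and FOS 3928th in likeness to JUN. BTG2 was 17th there in likeness to ATF3, and ATF3 6552nd in likeness to BTG2, while JUN was 17th in likeness to BTG2, and BTG2 1972nd in likeness to JUN. JUN was 48th in muscle in likeness to ATF3, and ATF3 12607th in likeness to JUN. The place of a gene depends on how far it differs between the groups as well as on the order of the calves within them.

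Marker genes of several cell types in the tissue, summed in CPM by library total, differed between the groups. Markers were named from the supplementary tables, mostly of genes selected on these libraries, so their separation is partly set by the selection. With no overlap, 16.3% of all genes tested were higher and 16.5% lower in IVP livers, and 10.4% and 8.64% in IVP muscle. In muscle, the 6 of 12 skeletal muscle fibre markers that could be named ranged in sum from 135008 to 157716 CPM in IVP and from 158011 to 165033 CPM in MOET calves, with none at 0, and in liver to at most 1.01 CPM, with MYH7 at 0 in each library. MYH2, a fast myosin, lay the other way from the sum in muscle, at 11218 to 17954 CPM in IVP against 6507 to 8757 CPM in MOET calves, and so did MYH7, the slow myosin, at 4677 to 15955 against 1994 to 3679 CPM. The 4 of 12 hepatocyte markers ranged from 7572 to 9145 CPM in IVP and from 6463 to 6742 CPM in MOET livers, so each organ held its own defining markers among those that could be named. Most of the liver sum was TTR, and APOB lay the other way, from 554.9 to 952.3 CPM in IVP and from 1231 to 1545 CPM in MOET livers. In muscle those hepatocyte markers ranged from 3.42 to 34.4 CPM in IVP and from 1.04 to 2.35 CPM in MOET calves, with APOB at 0 in each library.

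Endothelial markers, 4 of 10 named, ranged in sum from 156.7 to 299.9 CPM in IVP and from 136.9 to 153.0 CPM in MOET muscle and overlapped in liver. Taken singly, VWF and CLEC4G overlapped in muscle. In liver CLEC4G and EGFL7 were higher and VWF lower in IVP calves with no overlap, and CDH5 overlapped. The sum of fibroblast and stellate cell markers, 4 of 9 named, was lower in IVP calves with no overlap in both organs, from 771.4 to 1079 CPM against 1227 to 1739 CPM in muscle and from 474.9 to 661.5 CPM against 807.7 to 947.5 CPM in liver. Taken singly, COL1A2 overlapped in muscle (116.4 to 149.1 against 144.7 to 206.7 CPM) and DCN in liver (137.9 to 177.2 against 167.0 to 187.7 CPM). Macrophage markers, 5 of 10 named, overlapped in sum in both organs, while AIF1 taken singly was higher in IVP livers with no overlap. Of the neutrophil markers only S100A9 was named, at 2.13 to 6.002 CPM in IVP and 1.05 to 2.07 CPM in MOET livers, and of the bile duct markers only CFTR, at 1.83 to 3.53 CPM and 4.53 to 5.43 CPM. In muscle S100A9 reached at most 0.237 CPM and CFTR at most 0.0397 CPM. No lymphocyte, adipocyte or satellite cell marker could be named. The part of these cell types in the differences of FOS, JUN, ATF3 and BTG2 was not tested.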

How the data were processed

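Expression was measured by sequencing of polyadenylated RNA in 16 libraries, and the libraries were grouped by the organ, embryo origin and calf given in the sample labels. The authors cleaned the reads (SOAPnuke), mapped them to bosTau9 with STAR 2.7 and assigned them to Ensembl genes with HTSeq-count; they then removed age from the counts by means of sva, with a model that the text does not give. The deposited values are thus estimated counts in whole numbers, not reads as counted, and 0 other columns of values per sample were present. The tests assumed for counts were kept after rounding, which changed no value. No row was a total or an unassigned class. The methylation data were not analysed here.

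Genes were kept with filterByExpr of edgeR 4.0.16 (minimum count 10, minimum total 15), scaled by TMM, and compared by its quasi-likelihood test, with the age of the calf in days in the model and p-values adjusted over all genes tested by Benjamini-Hochberg (FDR threshold 0.05), in R 4.3.3 with limma 3.58.1. Contrasts between the organs used 1 fit over 16 libraries with 1 age term. Standard errors were derived from the F statistic. DESeq2 1.42.0 was an alternative. Simulated data with known fold changes were used to test the fits. The alternatives were scaling, filters, age terms, DESeq2, leaving out calves and the full siblings alone, with the calf as block between organs. An age term per organ was added after the data were seen.

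The 4 genes and the gene lists were chosen with earlier results of these data known. Gene names came from the supplementary tables, which pair 4175 IDs with 1 symbol; these are mostly genes the authors selected on the same libraries, and each list was named to under 80% of its members. Genes named in the text were the 4 genes, members of their families and of the immediate early list, and of each other list the genes passing the FDR threshold, up to 3 with the largest log2 fold change at a mean of at least 1 CPM and up to 2 with the highest CPM; the most similar genes were the 3 nearest with a symbol. A few genes covered by these rules are not reported here. Columns of fold changes and p-values in the supplementary tables were not used. Both organs came from the same calves, which pairs the libraries by design. As a check, the deviation of each library from its group was correlated between the organs of a calf, which gave -0.133 to 0.284 (median 0.119).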

Additional observations from a re-analysis of the deposited data

Results flagged for a closer look

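Among the 4 IVP calves, 77 sets of values, 1 per gene and organ, of the 4 genes, their families and the other immediate early genes were examined for a calf far from the others, and 3 were found, where chance alone marks about 1 in 20. BTG1 in liver was 134.3 CPM in calf 3209 and between 120.5 and 121.6 CPM in the other IVP calves. DUSP2 in muscle was 1.27 CPM in calf 5833 and between 0.426 and 0.516 CPM in the others. NR4A2 in muscle was 35.8 CPM in calf 5841, the calf that also had the highest FOS, JUN and ATF3 levels in that organ, and between 10.4 and 11.3 CPM in the others. None of the 4 genes was marked in this way.

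How far IVP calves were from MOET calves was itself different in the 2 organs (FDR under 0.05, edgeR, 1 fit over 16 libraries) in 16 of 35 relatives and other immediate early genes. Of all 15237 genes in that fit, 23.1% passed. Most of the 35 have a name only because they were selected on the difference between the groups in these libraries, so their share is not to be read against that of all genes. Of the 35, 9 passed with an age term per organ and 15 with the calf as a block. More positive in muscle than in liver, as muscle minus liver on the log2 scale, were ATF6 (1.78), FOSL2 (1.54), CREB3L2 (1.34), ATF7 (1.27), ATF2 (1.21) and TRIB1 (0.56). More negative in muscle were ATF5 (-2.08), GADD45G (-1.59), IER3 (-1.14), CEBPD (-1.07), GADD45A (-1.03), JUNB (-0.93), IER2 (-0.79), BTG1 (-0.66), NFKBIA (-0.64) and ZFP36 (-0.52). With an age term per organ, ATF7, CREB3L2, IER2, JUNB, NFKBIA, TRIB1 and ZFP36 no longer passed, and with the block ZFP36 and TRIB1 did not.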

How the results depend on the processing

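FOS, JUN, ATF3 and BTG2 kept the direction of their difference in muscle, and FOS and JUN in liver, under each of 17 alternatives, with log2 fold changes of 1.60 to 1.93 for FOS and 0.48 to 0.70 for JUN in liver and 0.72 to 1.29, 0.70 to 1.15, 2.51 to 3.25 and 1.42 to 1.79 for the 4 genes in muscle. Near 0 in liver, ATF3 was at -0.13 with library totals and from -0.12 to 0.20 with a calf left out (below 0 without 3208 or 3217), and BTG2 was at 0.38 among the full siblings and from -0.52 to 0.065 with a calf left out (above 0 without 5841 or 5932). With library totals the median of all genes in liver went from 0.00 to -0.16, and FOS and JUN were at 1.61 and 0.48. JUN in muscle lost its call with a minimum count of 50 (1.05, FDR 0.0535, edgeR) and among the full siblings (0.70); leaving out each calf gave 0.88 to 1.15. The number of genes called in liver was 5, and 17 with no filter, 2 with a minimum count of 50, 1568 with DESeq2, 2998 with no age term, 4657 with DESeq2 and no age term, 19 among the full siblings, and 1 to 2187 with a calf left out (2187 without calf 3213, 1219 without 5841). These fits with no age term on all calves kept calf 3213, which lay at the mean of the other MOET calves. With calf 3213 and the age term both left out, the number in liver was again 5. In muscle the number was 60, and 186 with no filter, 465 with DESeq2, 1174 with no age term, 1619 with DESeq2 and no age term, 21 among the full siblings and 6 to 350 with a calf left out (350 without 3209, 6 without 3218, 10 without 3217). With calf 3213 and the age term both left out, it was 83 in muscle. For the difference between the organs it was 3521, and 1878 without calf 3213 and age, 4 among the full siblings, 1370 with an age term per organ and 1477 to 4306 with a calf left out. With the calf as block, which the shared calves justify, it was 3491, and the differences of the 4 genes were -0.76, 0.38, 2.77 and 1.76; the block changed no call of muscle against liver. Except where the change is in the samples or genes tested, the cause was not tested. Promoter motifs and protein features were not run, as no sequences were used here. The age adjustment before deposition, only 3 MOET calves other than 3213 and 1 library per calf and organ limit the precision. The calves are also related: MOET calves 3217 and 3218 are full siblings, and the IVP calves share a dam.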
